A study of Mus musculus with 39 samples.

Results

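The 43 interferon-stimulated genes described here were taken by symbol from the 39017 gene rows of an RNA sequencing count table of sorted mouse pancreatic tumour cells, and all 43 had a row. They comprise 19 GTPase and gamma-type genes, 11 Ifit, Oas and Mx genes, 3 factors of the interferon response and 10 further genes of the type I response. The tumour cells came from clones whose tumours were classed by their T cells, and the study asked which genes differ between the T cell low and the T cell high class. All groups shared the host strain C57BL/6, a tumour grown under the skin, harvest 3 weeks after the cells were implanted and no treatment, and the labels give no genotype, age or further agent for any group. The low group held 18 libraries of 9 clones, the high group 14 libraries of 6 clones and the intermediate group 4 libraries of 2 clones. A further 3 libraries of 3 clones carry no class and entered no comparison. Each clone stands for one line of tumour cells, and the titles place some clones in one parent line, such as yfp_6499c3 (low) and yfp_6499c4 (high). Of the 9 low clones, 3 (yfp_6419c1, yfp_6419c4 and yfp_6419c5) share one parent line, and the tests count each clone as a replicate although clones of a line may not be independent. Within a clone, libraries are named here by the last number of the title, as tumour 1, 2 and so on.

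Interferons are secreted proteins that switch on a shared set of defence genes in the cells they reach. Type I interferons act through the Ifnar receptor and a complex that holds Stat2 and Irf9 and binds the interferon-stimulated response element, while interferon gamma acts through the Ifngr receptor and factors that bind the gamma-activated site. Guanylate-binding proteins, immunity-related GTPases, Irf1 and proteasome activator genes are textbook targets of interferon gamma, and Ifit, Oas, Mx and Isg15 are textbook antiviral targets of type I interferon, although most members answer to both. In pancreatic tumours the malignant epithelial cells themselves can carry such a programme, as can the leukocytes around them.

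The promoters show which members hold the letters of these elements. RefSeq promoters of build GRCm38.p6, which run from 250 bases before to 50 bases after the start of the gene, were found for 30 of the 43 members. The core of the response element, GAAA followed by 2 bases of any kind and another GAAA, searched on both strands, was in 19 of those 30, against 3.99% of all 27025 genes of the promoter table and 3.44% of its 32851 promoters. All 8 GTPase genes with a promoter held it, as did 5 of 8 Ifit, Oas and Mx genes. The letters of the gamma-activated site, TTCNNNGAA, which read the same on both strands, were in 10 of the 30, against 9.55% of all genes and 8.30% of all promoters. They were in 5 of 8 GTPase genes and in 2 of 8 Ifit, Oas and Mx genes. The search letters overlap in 1 place, in the promoter of Bst2. A match is a description of letters and not a measured binding site.

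Whole promoters are shown for Gbp2, the most abundant guanylate-binding protein gene per length among those with a length, and for the antiviral gene Ifit1. The last is that of Oasl1, the member whose level correlated negatively with most others. The windows are at chr3:142620413-142620712, chr19:34640639-34640938 and chr5:114922990-114923289, all on the plus strand, with the response element core in capitals.
Gbp2: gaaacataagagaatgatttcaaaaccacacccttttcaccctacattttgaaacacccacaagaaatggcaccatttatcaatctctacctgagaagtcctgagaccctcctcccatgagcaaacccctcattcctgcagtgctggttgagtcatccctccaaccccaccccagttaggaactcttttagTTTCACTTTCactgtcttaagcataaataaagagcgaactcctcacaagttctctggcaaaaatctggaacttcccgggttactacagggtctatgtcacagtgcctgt
Ifit1: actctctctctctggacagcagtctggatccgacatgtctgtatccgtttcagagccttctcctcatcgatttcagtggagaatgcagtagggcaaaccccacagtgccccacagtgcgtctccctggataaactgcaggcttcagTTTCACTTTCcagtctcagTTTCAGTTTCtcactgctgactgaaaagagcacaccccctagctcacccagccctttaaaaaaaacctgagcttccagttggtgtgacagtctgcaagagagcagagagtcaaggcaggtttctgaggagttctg
Oasl1: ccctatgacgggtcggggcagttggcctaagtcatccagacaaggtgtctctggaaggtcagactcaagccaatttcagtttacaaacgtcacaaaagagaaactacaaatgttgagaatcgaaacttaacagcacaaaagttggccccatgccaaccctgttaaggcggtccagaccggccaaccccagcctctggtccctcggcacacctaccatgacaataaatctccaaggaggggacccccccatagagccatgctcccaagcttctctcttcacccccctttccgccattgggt
Gbp2 held the core once and Ifit1 at 2 positions, while the Oasl1 window held neither string of letters. The windows of Irf7 and Irf9 also held neither, although their levels went with the other members. Their median correlations with the other members over 17 heart-free clones were 0.642 and 0.669.

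Short stretches around single matches are shown next, on the gene's strand and with the match in capitals, to compare the gamma-type and the antiviral members. The first 3 are immunity-related GTPases, in which the gamma-activated letters begin 11 bases before the response element core.
Igtp: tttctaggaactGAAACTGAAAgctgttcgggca
Irgm2: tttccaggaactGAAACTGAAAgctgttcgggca
Tgtp1: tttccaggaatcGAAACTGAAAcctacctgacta
The next 3 are the gamma-activated letters of Gbp7, Irf1 and Icam1, at positions -87, -90 and -42 from the start.
Gbp7: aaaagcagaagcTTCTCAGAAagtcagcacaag
Irf1: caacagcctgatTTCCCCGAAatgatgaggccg
Icam1: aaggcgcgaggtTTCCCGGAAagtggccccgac
The last 6 are response element cores of Psme1, of the near-identical pair Ifit3 and Ifit3b, and of Oas1a, Isg15 and Socs1.
Psme1: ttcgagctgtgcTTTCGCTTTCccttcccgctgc
Ifit3: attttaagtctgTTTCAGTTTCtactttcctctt
Ifit3b: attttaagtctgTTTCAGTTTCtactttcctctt
Oas1a: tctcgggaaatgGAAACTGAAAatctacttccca
Isg15: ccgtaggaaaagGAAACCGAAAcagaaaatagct
Socs1: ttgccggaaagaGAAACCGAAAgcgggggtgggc
The windows searched were at chr11:58199306-58199605 (Igtp, plus strand), chr11:58214727-58215026 (Irgm2, plus), chr11:48992197-48992496 (Tgtp1, minus), chr3:142530086-142530385 (Gbp7, plus), chr11:53769764-53770063 (Irf1, plus), chr9:21015690-21015989 (Icam1, plus) and chr14:55578244-55578543 (Psme1, plus). The others were at chr19:34583279-34583578 (Ifit3, plus), chr19:34607707-34608006 (Ifit3b, plus), chr5:120907476-120907775 (Oas1a, minus), chr4:156200769-156201068 (Isg15, minus) and chr16:10785487-10785786 (Socs1, minus).

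Library totals ran from 7638130 to 103794674 counts, and levels are given as CPM, a gene's counts scaled to the same total in each library. Heart muscle genes (Mb, Myh6, Myh7 and Myl2, summed) stood at no more than 0.235 CPM in 20 libraries of 17 clones, which are called heart-free. In the other 19, called heart-bearing, their sum was 152 to 4893 CPM, so results are given for heart-free libraries alone as well as for all. Several heart-bearing libraries were alike across clones and classes, and fits that hold them count the clones as separate. Wars stood at 204, 199, 203 and 204 CPM in tumour 1 of yfp_6499c4, yfp_6555c3, yfp_6556c4 and yfp_6620c1 (high). It stood at 192 CPM in yfp_6419c5 tumour 1 and 201 CPM in yfp_2699c4 tumour 2 (low). The reason was not tested. The labelled tumour cells carried their epithelial markers in each library, with Krt8, Krt18, Krt19, Epcam and Cdh1 summing to 3076 to 9928 CPM. All 8 leukocyte markers were detected in each library too, summing to 20.6 to 444 CPM in heart-free libraries, as were all 8 macrophage markers. The 8 T cell markers summed to 0.57 to 13.3 CPM there, with Cd3d, Cd3e, Cd3g, Cd2, Cd8a and Cd6 at 0 in some. Whether libraries of one clone came from separate animals is not stated, so p-values measure the spread between these clones' summed counts. In bulk libraries fewer cells of a type and less RNA per cell cannot be told apart.

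The guanylate-binding proteins and immunity-related GTPases, which coat and break down the vacuoles of intracellular pathogens, varied far more between heart-free libraries than between the T cell classes. Gbp2 (ENSMUSG00000028270, chromosome 3, 142620602 to 142638008) ran from 8.30 to 75.9 CPM with a median of 26.6 in the 9 heart-free low libraries. In the 8 heart-free high libraries it ran from 5.86 to 169 CPM with a median of 31.7. The ranges overlapped almost entirely, and the highest value, 169 CPM, came from tumour 4 of clone yfp_2838c3, whose tumours 2 and 3 stood at 30.3 and 30.6 CPM. Over all 20 heart-free libraries Gbp2 spanned 69.1-fold. Iigp1, an immunity-related GTPase gene, spanned 170-fold, from 0.799 CPM (32 counts) in yfp_6422c5 tumour 2 to 136 CPM in yfp_2838c3 tumour 4. Its heart-free range was 2.16 to 52.2 CPM in low libraries (median 13.4) and 3.06 to 136 CPM in high ones (median 23.7). Irgm1 (ENSMUSG00000046879, chromosome 11, 48861968 to 48871683), a regulator of the other family members, moved within a narrower range of 13.7 to 77.7 CPM.

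**Figure D1:**
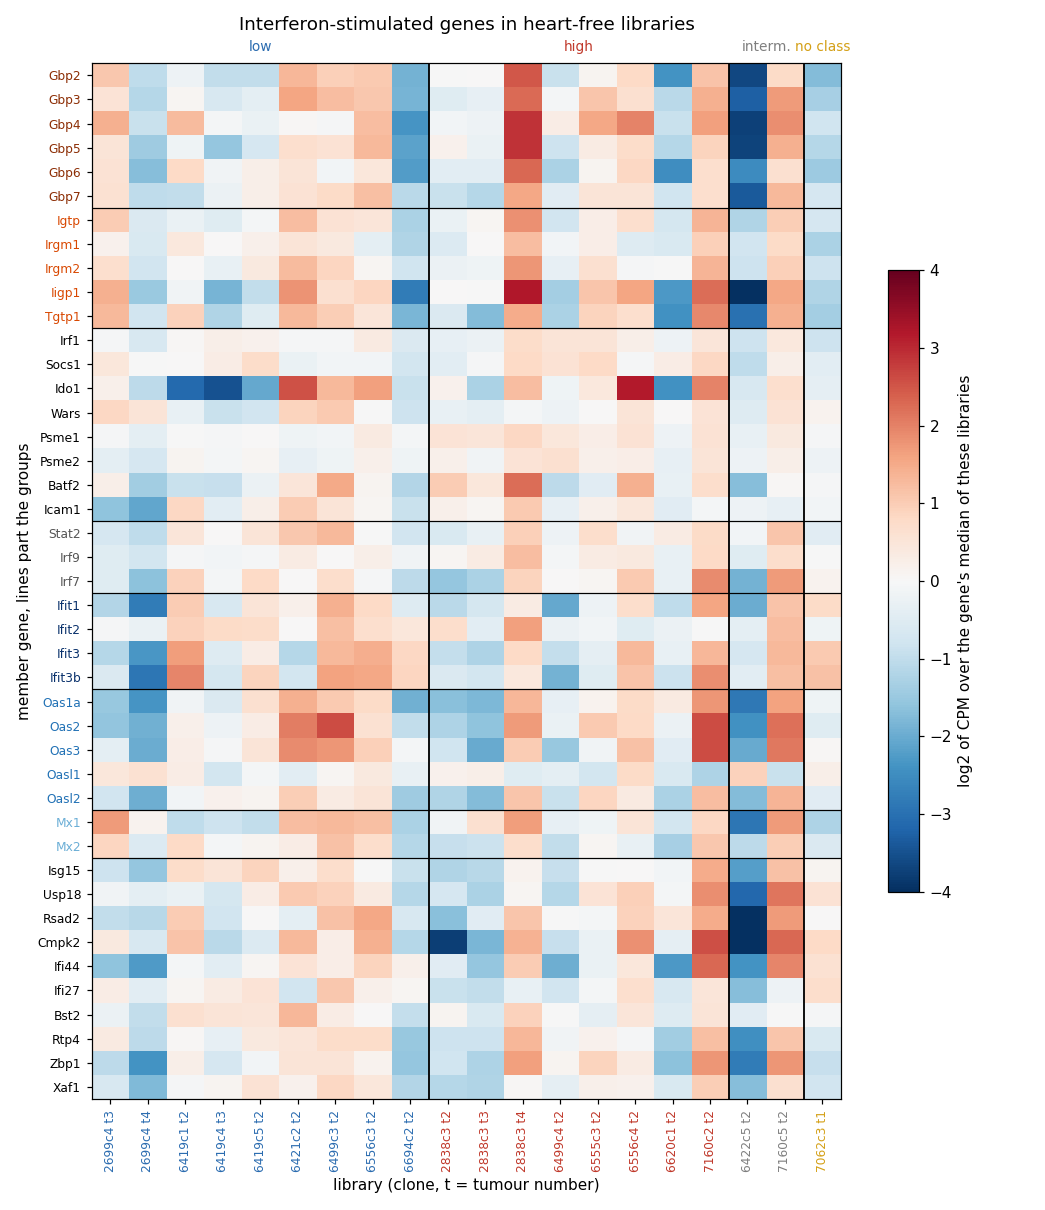
Each row is 1 of the 43 members and each column 1 of the 20 heart-free libraries, ordered by T cell class. Colour gives the log2 of the CPM over the gene's median across these libraries, ending at 4 in either direction. Tumour 4 of yfp_2838c3 and tumour 2 of yfp_7160c2 are red over most rows, and yfp_6422c5 tumour 2 and yfp_2699c4 tumour 4 are blue, while the row of Oasl1 runs the other way.

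With counts summed per clone, none of the 11 GTPase genes passed the test between high and low clones. Over all libraries edgeR's quasi-likelihood test called 0% of 18551 genes at a Benjamini-Hochberg adjusted p under 0.05, and 2176 genes (11.7%) had an unadjusted p under 0.05, 4.96% in the higher and 6.77% in the lower direction. In the heart-free libraries it called 0% of 15635 genes, with 2095 (13.4%) at an unadjusted p under 0.05, 7.62% higher and 5.78% lower. DESeq2 called 123 and 299 genes in the same comparisons and limma 0 in each, and no tool called a member. At an unadjusted p under 0.05, edgeR had 1 member over all libraries, which was lower, and 4 in heart-free ones, of which 3 were higher and 1 lower. DESeq2 had 1 and 3 of the 43 members, against 14% and 15.2% of all genes. By limma it was 1 and 3, against 9.32% and 12% of all genes.

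Among heart-free clones the GTPase differences all had one sign by edgeR. Of the 11 fold changes, 11 were above 0, against 49.6% of all genes tested, with a median log2 of 0.18 against -0.0023 over all genes. By limma it was 8 of 11 and by DESeq2 10 of 11. These genes varied together, with a median correlation between pairs of 0.843 over heart-free clones, so their signs are not independent. Gbp4 (ENSMUSG00000079363, chromosome 5, 105115767 to 105139586) stood at 5.86 ± 3.08 CPM in 6 high clones and 3.05 ± 1.82 CPM in 8 low clones (mean ± SD). The log2 difference was 0.96 ± 0.51 (SE, edgeR adjusted p = 0.424), and 4 of 6 high clones lay above every low clone. For Iigp1 the clone means were 35.3 ± 27 and 19.1 ± 16.4 CPM, with a log2 difference of 0.90 ± 0.71 (edgeR adjusted p = 0.595). The other 9 differences lay between 0.01 for Gbp7 and 0.50 for Gbp5, each no larger than its standard error. Without yfp_2838c3 tumour 4, an alternative chosen after seeing the data, 8 of 11 were above 0. Leaving out 1 clone at a time gave 7 to 11 of 11, the lowest without yfp_7160c2. The counts of Gbp4 may include reads of Gbp8 and Gbp9, whose models it overlaps, and Irgm2 overlaps Igtp.

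Over all libraries the 11 GTPase genes had 10 fold changes above 0, against 48.3% of all genes, with a median log2 of 0.10. Without yfp_2838c3 tumour 4 the count was 2 of 11. Leaving out 1 clone gave 3 to 11 of 11, with 3 without yfp_6422c1 or yfp_6694c2, 4 without yfp_7160c2 and 5 without yfp_2838c3. In heart-bearing libraries alone it was 2 of 11, with a median of -0.35. The direction over all libraries therefore changed with the libraries used. The row named Gbp5 carries ENSMUSG00000040264 and that named Gbp6 ENSMUSG00000079362, identifiers that have other names in the GENCODE annotation used here, so the identity of these members is uncertain.

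**Figure D2:**
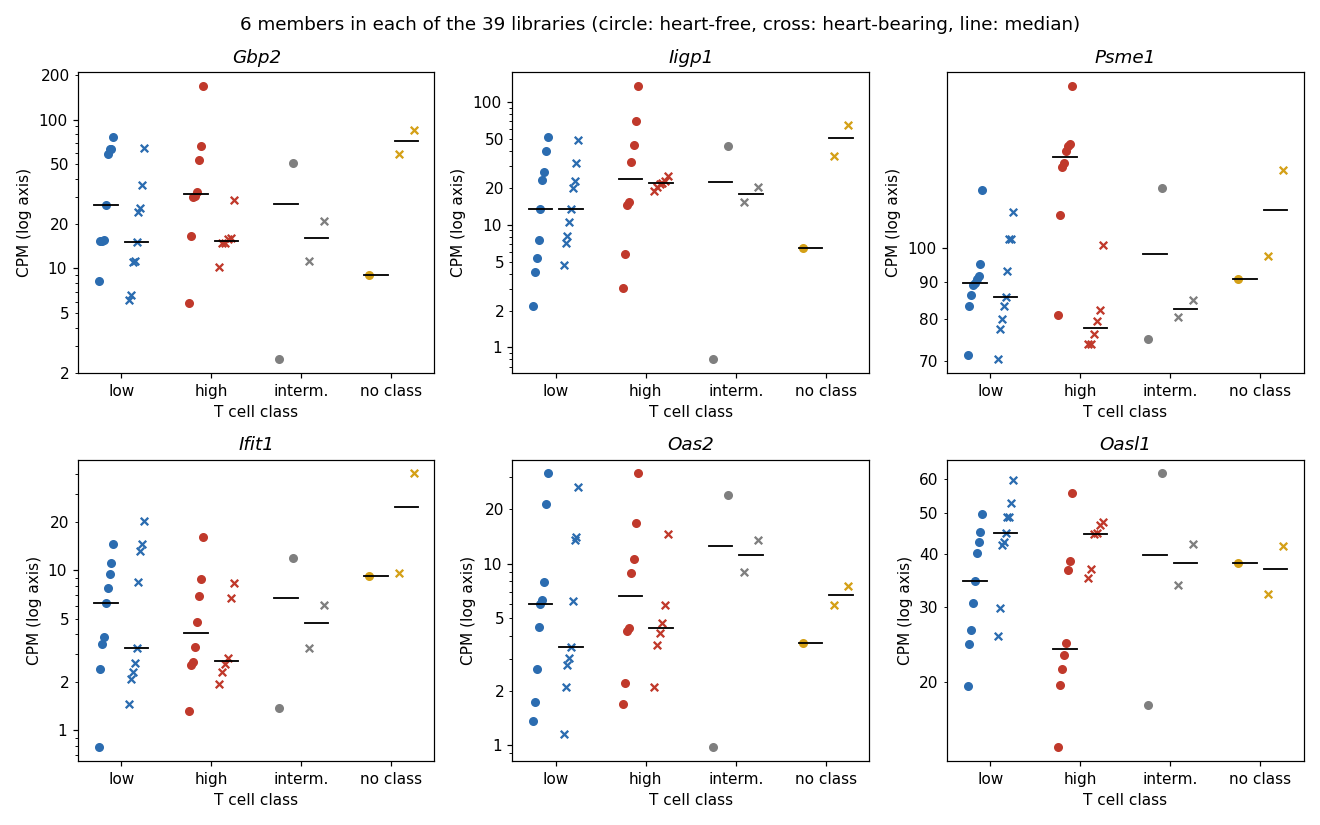
Each point is 1 library, placed by T cell class on the horizontal axis and by CPM on a log axis, with circles for heart-free and crosses for heart-bearing libraries and a line at each median. Classes overlap for all 6 genes. The heart-free high libraries of Psme1 sit mostly above the heart-free low ones, at a median of 134 against 89.6 CPM, and the crosses do not show this order.

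In the heart-free comparison the other gamma-type genes held the 2 members with the smallest p. Psme1 and Psme2 encode the interferon-inducible PA28 activator of the proteasome, which shapes peptides for presentation to T cells. Psme1 (ENSMUSG00000022216, chromosome 14, 55578123 to 55581529) ran from 81.0 to 167 CPM in heart-free high libraries (median 134) and from 71.5 to 120 CPM in heart-free low libraries (median 89.6). Only yfp_6620c1 among the high clones, at 81.0 CPM, lay below all low clones, and 4 of 6 high clones lay above all 8 low ones. The clone means were 124 ± 24 and 92 ± 12 CPM, with a log2 difference of 0.44 ± 0.14 (unadjusted p = 0.0072, edgeR adjusted p = 0.253). Psme2 (ENSMUSG00000079197, chromosome 14, 55587441 to 55591113) averaged 93.8 ± 20.5 CPM over high and 72 ± 11.9 CPM over low clones, with a log2 difference of 0.39 ± 0.16 (edgeR adjusted p = 0.337). For Psme2, 5 of 6 high clones lay above all low clones.

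In heart-bearing libraries, several of which were alike across clones, the order of both proteasome activators was the other way round. Psme1 had medians of 77.8 CPM in 6 high and 85.7 CPM in 9 low libraries, and Psme2 51.2 and 55.3 CPM. The fit of heart-bearing libraries gave a log2 difference of -0.25 ± 0.13 for Psme1 and -0.18 ± 0.12 for Psme2 (edgeR adjusted p = 0.471 and 0.486). Over all libraries the differences were 0.12 ± 0.12 and 0.14 ± 0.12.

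Irf1, the transcription factor that carries the gamma response to secondary targets (ENSMUSG00000018899, chromosome 11, 53770014 to 53778374), varied only 2.98-fold over the heart-free libraries. It ran from 50 to 105 CPM in heart-free high libraries (median 81.4) and from 40.1 to 81.1 CPM in low ones (median 61.1). The log2 difference was 0.31 ± 0.15 over clones (adjusted p = 0.378), with 3 of 6 high clones above all low clones. Socs1, the feedback inhibitor of the Jak kinases, averaged 7.32 ± 1.67 CPM over high and 5.48 ± 1.64 CPM over low clones (log2 difference 0.42 ± 0.22, edgeR adjusted p = 0.413).

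Wars, a tryptophanyl-tRNA synthetase gene, and Icam1, the adhesion ligand of leukocyte integrins, lay slightly below 0. Their heart-free log2 differences were -0.02 ± 0.33 and -0.06 ± 0.36. Ido1, the tryptophan-degrading enzyme that restrains T cells, spanned 101-fold, from 0.18 CPM (7 counts) in yfp_6419c4 tumour 3 to 18.1 CPM in yfp_6556c4 tumour 2. Clone yfp_6421c2, classed low, was second for Ido1 at 11.6 CPM. Batf2, a leucine zipper factor, differed by 0.54 ± 0.49. Of these 8 genes, 6 were above 0 in heart-free clones with a median log2 of 0.41, and 7 over all libraries with a median of 0.13.

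The factors of the type I response gave mixed values. Irf9, the DNA-binding part of the Stat complex (ENSMUSG00000002325, chromosome 14, 55603571 to 55610030), ran from 25.8 to 74.8 CPM in heart-free high libraries and from 19.1 to 39.6 CPM in low ones. Its medians were 39.5 and 30.5 CPM, and 3 of 6 high clones lay above all low clones. The log2 difference was 0.39 ± 0.18 (unadjusted p = 0.0499, edgeR adjusted p = 0.373), and it was -0.14 ± 0.16 in heart-bearing libraries. Irf7, the amplifier of type I interferon production, was highest in sister clones, at 51.5 CPM in yfp_7160c2 (high) and 45 CPM in yfp_7160c5 (intermediate). Its heart-free log2 difference was 0.50 ± 0.41. Stat2 differed by -0.06 ± 0.31.

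The Ifit genes, whose products bind foreign RNA and block its translation, stood lower in high than in low clones in all 4 cases, without passing the test. Ifit2 (ENSMUSG00000045932, chromosome 19, 34550694 to 34576419) ran from 3.49 to 15.4 CPM in heart-free high libraries (median 4.38) and from 4.07 to 11.2 CPM in low ones (median 7.78). The highest library and the lowest library were both high, and 3 of 6 high clones lay below all low clones. The clone means were 5.02 ± 1.94 in high and 7.61 ± 2.22 CPM in low clones, with a log2 difference of -0.60 ± 0.26 (unadjusted p = 0.0336, edgeR adjusted p = 0.348). Over all libraries the difference was -0.45 ± 0.21, and it was the only member with an unadjusted p under 0.05 there (p = 0.049, adjusted p = 0.423). In heart-bearing libraries it was -0.35 ± 0.26.

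Ifit1 (ENSMUSG00000034459, chromosome 19, 34640871 to 34650009) ran from 1.33 to 16.1 CPM in heart-free high and from 0.784 to 14.6 CPM in heart-free low libraries. The groups overlapped over nearly the whole range, and the log2 difference was -0.17 ± 0.55, which ran from -0.68 to 0.04 when 1 clone was left out. Ifit3 and Ifit3b differed by -0.27 ± 0.56 and -0.44 ± 0.64. The last 2 genes share near-identical sequence, so the division of reads between them is uncertain.

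**Figure D3:**
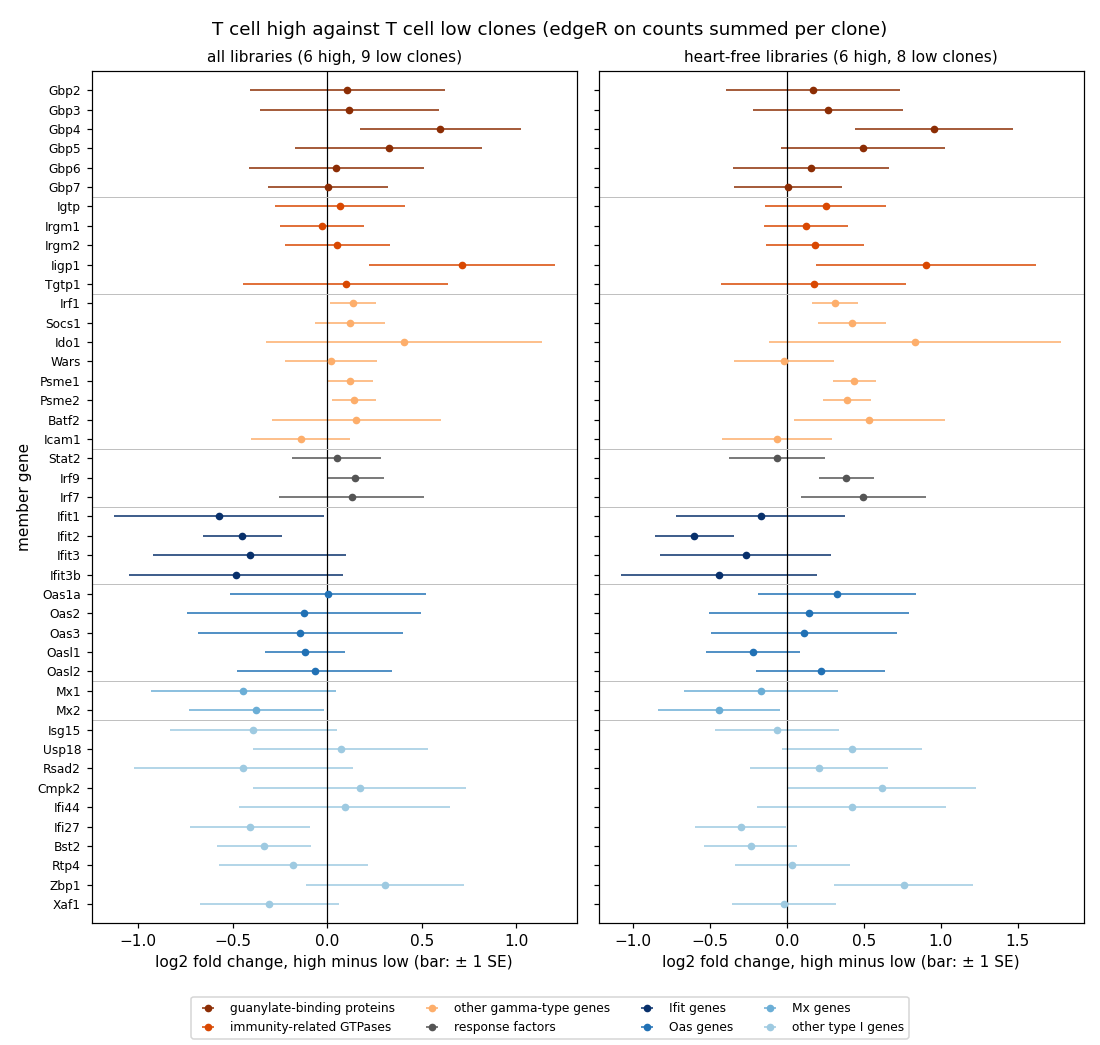
Each row is a member, and the horizontal axis gives the log2 fold change of high minus low clones with a bar of 1 SE, over all libraries on the left and heart-free libraries on the right. Of the 43, 25 lie above 0 on the left and 29 on the right. The 4 Ifit genes lie left of 0 in both panels, and most bars cross 0.

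The Oas genes, a family that includes sensors of double-stranded RNA that activate a ribonuclease, differed in their signs. Of 5, 4 were above 0 in heart-free clones and 1 over all libraries. Oas2 (ENSMUSG00000032690, chromosome 5, 120730333 to 120749853) was at 31.6 CPM both in the high clone yfp_7160c2 and in the low clone yfp_6499c3. At the other end it stood at 0.974 CPM (39 counts) in the intermediate clone yfp_6422c5. The heart-free log2 difference was 0.14 ± 0.65. Oas1a and Oas3 differed by 0.32 ± 0.51 and 0.11 ± 0.60, and Oas1a has near-identical neighbours. The dynamin-like antiviral genes Mx1 and Mx2 differed by -0.17 ± 0.50 and -0.44 ± 0.40.

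The whole group of 11 Ifit, Oas and Mx genes had 4 fold changes above 0 in heart-free clones (median log2 -0.17) and 1 over all libraries (median -0.38). Without clone yfp_7160c2 the heart-free count was 0 of 11, with a median of -0.53. In heart-bearing libraries it was also 0 of 11, with a median of -0.56, against 46.6% of 17313 genes above 0. The 19 GTPase and gamma-type genes had 17 above 0 in each of the main comparisons (median 0.27 heart-free and 0.12 over all), and 13 of 19 without yfp_7160c2 in heart-free clones. In heart-bearing libraries 2 of the 19 were above 0, with a median of -0.25. Members varied together over clones, so these counts are not of independent genes.

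The further type I genes included the most abundant antiviral members. Bst2, which encodes tetherin, stood at 46.6 CPM per kilobase of exon in the median heart-free library and Ifi27 at 30.9, against 7.10 for the ubiquitin-like modifier Isg15. Among heart-free libraries Bst2 was highest in yfp_6421c2 (low) at 106 CPM and differed by -0.23 ± 0.30 between the classes. Isg15 (ENSMUSG00000035692, chromosome 4, 156199424 to 156200818) ran from 2.31 to 14.9 CPM in heart-free high libraries and from 1.83 to 10 CPM in low ones, a log2 difference over clones of -0.06 ± 0.40. Zbp1, a sensor of Z-form nucleic acid, differed by 0.76 ± 0.45 (adjusted p = 0.465). Of the 10 genes, 6 were above 0 in heart-free clones and 4 over all libraries.

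On the same scale per kilobase of exon, the median heart-free level was 50.4 for Wars, 43.5 for Psme2, 42.2 for Psme1, 23.4 for Icam1 and 15.9 for Irf1. The same measure was 12.5 for Oasl1 and 12.1 for Gbp2. The lowest values were 0.314 for Gbp4, 0.366 for Ifi44 and 0.43 for Mx2. The proteasome activators, Irf1 and Wars were thus high in level and narrow in range, while among the GTPase genes with a length the level was lower and, for Gbp4, Iigp1 and Gbp2, the range wide.

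**Figure D4:**
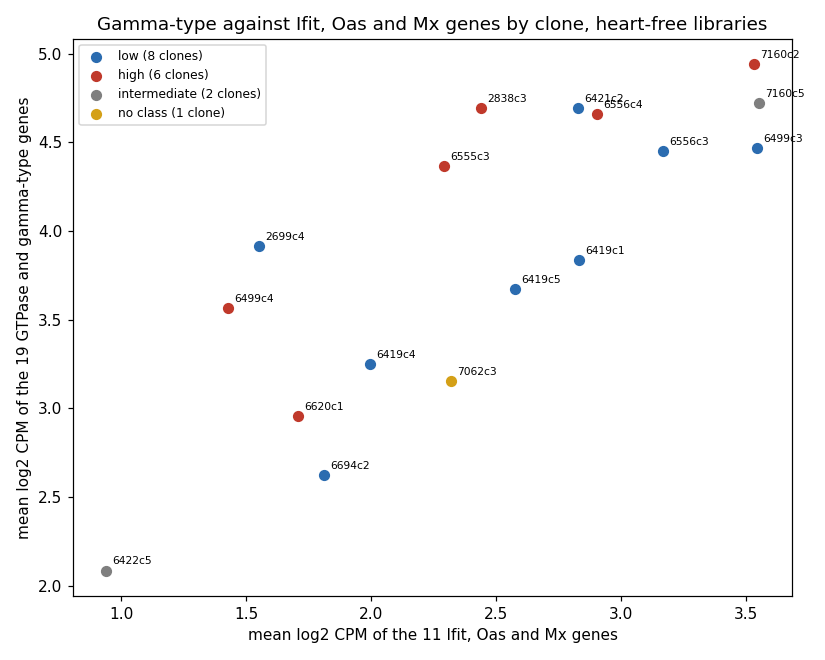
Each point is 1 of 17 clones in heart-free libraries, with the mean log2 CPM of the 11 Ifit, Oas and Mx genes on the horizontal axis and of the 19 GTPase and gamma-type genes on the vertical axis. The clones spread along the diagonal from yfp_6422c5 to yfp_7160c2, and at a like antiviral level yfp_2838c3 and yfp_6555c3 sit higher than yfp_6419c5 and yfp_7062c3. Low clones part in the same way, with yfp_6421c2 at 4.692 and yfp_6419c1 at 3.835 on the vertical axis at a like antiviral level.

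Gamma-type and antiviral members varied together across clones, but not in step. The score of a group is the mean log2 CPM of its genes with a prior count of 2. The gamma-type score minus the Ifit, Oas and Mx score was 1.81 ± 0.41 in 6 high clones, 1.32 ± 0.53 in 8 low clones and 1.16 ± 0.01 in 2 intermediate clones (mean ± SD, heart-free libraries). The ranges overlapped: the largest difference, 2.36, was in the low clone yfp_2699c4, and the high clones ran from 1.25 in yfp_6620c1 to 2.26 in yfp_2838c3. The smallest was 0.81 in the low clone yfp_6694c2. Over all libraries the means were 1.61, 1.22 and 1.12. In single heart-bearing libraries the difference had a median of 1.28 in high and 1.22 in low ones.

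Across the 17 heart-free clones, Pearson correlations of log2 CPM show how tightly each family held together, as a description of clones that share lines, libraries and depth. The median over 55 pairs of GTPase genes was 0.843, with a lowest value of 0.570. Among the Ifit, Oas and Mx genes it was 0.487. Between GTPase genes and all Ifit, Oas and Mx genes it was 0.619, above the value within the latter, and between GTPase genes and the Ifit genes alone 0.330. Between GTPase and other gamma-type genes it was 0.549, among the other gamma-type genes 0.301, and between GTPase genes and the 10 further type I genes 0.646. Apart from Oasl1, the members with the lowest median correlation with the GTPase genes were Ifit3 at 0.242, Ifit3b at 0.279 and Ifi27 at 0.307. Oasl1 correlated negatively with most members. It makes up a larger share of pairs within the Ifit, Oas and Mx genes than of their pairs with GTPase genes. The values 0.487 and 0.619 were not compared without it.

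Oasl1, a negative regulator of Irf7 translation (ENSMUSG00000041827, chromosome 5, 114923240 to 114937915), ran weakly against most of the rest. It was highest, at 62 CPM, in yfp_6422c5, the clone in which 23 other members had their lowest heart-free value. It was lowest, at 14 CPM, in yfp_7160c2 tumour 2, the library with the highest value of 11 members. Its correlation was negative with 37 of the 42 other members, with a median of -0.279 over 17 clones. Its near relative Oasl2 had a median of 0.754 with the other members. In tumours of one clone the same held: Oasl1 stood at 23.1 CPM in yfp_2838c3 tumour 4, against 36.6 and 38.6 CPM in tumours 2 and 3. Other clones did not follow this order. Oasl1 stood at 55.6 CPM in yfp_6556c4, with a heart-free gamma-type score of 4.657, and at 19.5 CPM in yfp_6419c4, with a score of 3.251. Like most members, Oasl1 was higher in yfp_6499c3 than in yfp_6499c4, at a ratio of 1.4.

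Tumours of one clone could differ widely in these genes. In yfp_2838c3, a high clone with 3 heart-free libraries, 42 of 43 members were higher in tumour 4 than in tumour 2, by a median of 3.31-fold, and the exception was Oasl1. The GTPase genes were higher by a median of 5.59-fold, from 3.45-fold for Irgm1 to 8.94-fold for Iigp1. The largest ratio, 35.8-fold for Cmpk2, rested on 4 counts in tumour 2. Tumour 3 over tumour 2 had a median ratio of 0.949, with 18 of 43 members higher. In yfp_2699c4, a low clone, 42 of 43 members were higher in tumour 3 than in tumour 4, by a median of 2.25-fold and of 3.85-fold for the GTPase genes, and Oasl1 was again the exception at a ratio of 0.906.

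Marker levels of other cells were higher with the members in yfp_2838c3 and not in yfp_2699c4. The leukocyte sum was 413 CPM in tumour 4 of yfp_2838c3 against 39.1 and 39.9 CPM in tumours 2 and 3, and the macrophage sum 3132 against 238 and 304 CPM. In yfp_2699c4 the leukocyte sum was 104 CPM in tumour 3 and 121 CPM in tumour 4, and the macrophage sum 236 and 431 CPM. Clone yfp_7160c2, with high members, had a leukocyte sum of 27.6 CPM in its heart-free library. In yfp_6499c4 the sum was 306 CPM while Gbp2 stood at 16.5 CPM. Other clones had members and sum together: yfp_7160c5, with high members, had a heart-free sum of 444 CPM. The heart-free library of yfp_6422c5, with the lowest members, had a sum of 20.6 CPM. Over the 17 heart-free clones the correlation of single members with the leukocyte sum ran from -0.415 for Bst2 to 0.381 for Mx1. Between classes the heart-free leukocyte sum was 27.6 to 413 CPM in high libraries (median 149) and 25.9 to 248 CPM in low ones (median 95.6). The macrophage sum was 108 to 3132 CPM in high (median 896) and 94.1 to 1682 CPM in low libraries (median 315), and the T cell sum had medians of 2.67 and 0.777 CPM. All 3 medians were thus higher in the class in which most gamma-type members had the higher mean, and the part of these cells in the results was not tested.

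**Figure D5:**
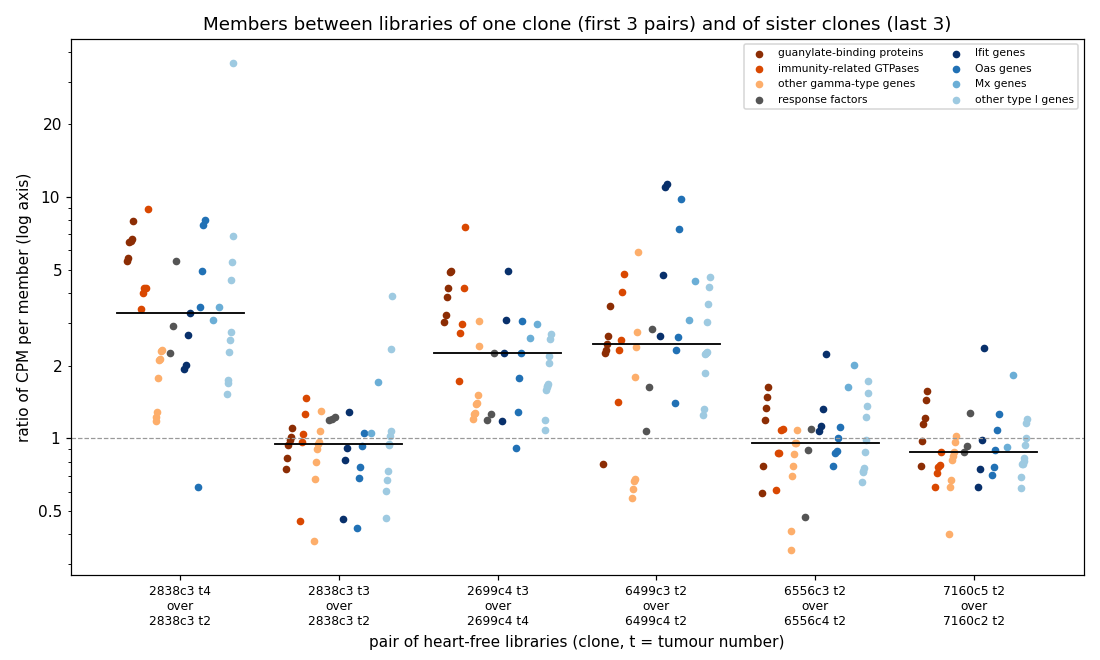
Each point is a member, and the vertical log axis gives the ratio of its CPM between 2 heart-free libraries of one clone (the first 3 pairs) or of sister clones (the last 3), with a line at the median. The medians are 3.31, 0.949, 2.25, 2.46, 0.959 and 0.877 from left to right. The GTPase genes have medians of 5.59 in the first pair and 3.85 in the pair of yfp_2699c4.

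Clones of one parent line allow the classes to be set side by side within a line, with 1 heart-free library each and so no test. The low clone yfp_6499c3 was above the high clone yfp_6499c4 for 38 of 43 members, with a median ratio of 2.46. The Ifit, Oas and Mx genes had a median ratio of 4.47, up to 11.4 for Ifit3b, while Psme2 was lowest at 0.565. Low clone yfp_6556c3 over high clone yfp_6556c4 had a median ratio of 0.959, with Ido1 lowest at 0.344. Of its GTPase genes 6 of 11 were higher in the low clone, with a median ratio of 1.09. Of its Ifit, Oas and Mx genes 8 of 11 were, with a median ratio of 1.11. The intermediate clone yfp_7160c5 over the high clone yfp_7160c2 had a median of 0.877. For the GTPase genes the order in yfp_6499c3 and yfp_6499c4 was the reverse of that of the class means, with 10 of 11 higher in the low clone and Gbp4 at a ratio of 0.781. The leukocyte sums were 248 CPM in yfp_6499c3 and 306 CPM in yfp_6499c4.

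In some clones the members differed between heart-bearing and heart-free libraries, and markers of other tissues differed between these kinds of library. The 6 liver markers summed to 481 to 15887 CPM in heart-bearing and 0.0803 to 241 CPM in heart-free libraries, and the median leukocyte sum was 284 against 88.7 CPM. Between classes, the heart-bearing liver sum had a median of 14373 CPM in high and 5875 CPM in low libraries. The part of these transcripts in the results was not tested. Of the 15 clones with both kinds, yfp_7160c5 had 2 of 43 members higher in its heart-bearing library, yfp_6556c4 4, and yfp_7160c2 and yfp_6555c3 5 each. In yfp_6422c5, the clone with the lowest members, 39 of 43 were higher in the heart-bearing library. Other clones split about evenly, with 23 higher in yfp_6421c2, 21 in yfp_6499c4, 21 in yfp_6556c3 and 20 in yfp_6620c1. Their median log2 differences were 0.015, -0.025, -0.032 and -0.012. The heart-bearing libraries of yfp_6499c4, yfp_6555c3, yfp_6556c4 and yfp_6620c1 were among those alike across clones. For these clones the count sets the heart-free library against a profile shared by several clones. The median range of a member was 13.9-fold over 20 heart-free and 9.86-fold over 19 heart-bearing libraries, with 29 of the 41 members compared wider in heart-free ones. The heart-bearing range counts libraries that were alike as separate. Between classes, 3 of 43 members were above 0 in the fit of heart-bearing libraries, namely Gbp4, Iigp1 and Stat2, and the median log2 was -0.42. Batf2 had the smallest p there, with a log2 difference of -1.02 ± 0.45 (edgeR adjusted p = 0.466). The fit of heart-bearing libraries counts libraries that were alike as separate clones. Neither this fit nor that of heart-free libraries called a member, and the difference between them was not tested.

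For the intermediate clones, yfp_6422c5 and yfp_7160c5 stood at opposite ends of the members' range. Gbp2 was at 2.45 CPM in the heart-free library of yfp_6422c5 and 51.4 CPM in that of yfp_7160c5, and Usp18, the Isg15-removing protease, at 0.649 and 25.3 CPM. Against low clones, edgeR called 0.00499% of 20028 genes and none of the 43 members. The 1 gene called, named after its values were seen, was H2-M2, a class Ib histocompatibility gene, with a log2 difference of 3.70 ± 0.52 (edgeR adjusted p = 0.0358). At an unadjusted p under 0.05 there were 1009 genes (5.04%, of which 3.54% higher and 1.5% lower) and no member. Of the members 20 were above 0, against 49.7% of all genes, with a median log2 of -0.04.

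Against high clones edgeR called 0% of the 20028 genes, with 414 (2.07%, of which 1.47% higher and 0.594% lower) and no member at an unadjusted p under 0.05. Of the members 26 were above 0, against 51.8% of all genes, with a median log2 of 0.05. These comparisons share the 2 intermediate clones, which went in opposite directions. Without yfp_6422c5, 37 members were above 0 against low and 36 against high clones, where 48.1% and 46.9% of all genes were. Without yfp_7160c5 the count was 2 in each, where 42.3% and 45.4% of all genes were above 0. In these fits the lone intermediate clone was assumed to vary like the other groups. In heart-free libraries Ifi27 had an unadjusted p under 0.05 against low clones, with a log2 difference of -1.04 ± 0.48 (edgeR adjusted p = 0.768).

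The other genes of the pathway were read from a list of 69. The ligands were near the limit of detection: Ifng had at most 9 counts in any library, Ifnb1 at most 7 and Ifna1 at most 1, and none of 9 ligand genes had enough counts to be tested. All 6 receptor genes were tested. Ifngr1 ran from 96.1 to 279 CPM, Ifngr2 from 80.5 to 173 CPM and Ifnar1 from 77.9 to 152 CPM over the heart-free libraries, so each library held transcripts of both receptor types. Of the 56 pathway genes tested in heart-free clones, 35 were above 0, against 49.6% of all genes. At an unadjusted p under 0.05, 6 were higher and none lower, against 7.62% and 5.78% of all genes, so the count of higher genes is near the background, and none passed edgeR's adjusted test. The 6 were the interferon regulatory factors Irf3, Irf5 and Irf8 and the stimulated genes Epsti1, Trafd1 and Ifitm2. Irf5 and Irf8, which macrophages also express, differed by 1.68 ± 0.64 and 1.33 ± 0.56 on the log2 scale, and Epsti1 by 1.62 ± 0.53. Over all libraries 33 of 59 were above 0, against 48.3% of all genes, with 4 higher and 1 lower at an unadjusted p under 0.05, against 4.96% and 6.77% of all genes.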

How the data were processed

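RNA sequencing counts per gene were analysed for 39 libraries of 20 clones. The authors deposited raw counts, made with STAR and featureCounts on mm10 per the submitters' processing notes. Their versions, the annotation and the strand setting were not given in the sources used here. Genes were matched by symbol, and coordinates come from GENCODE M21 on GRCm38. The members and lists were chosen with earlier results of these data known. All 43 members are named, with full values for those of each group with the highest level, the smallest p or the widest range.

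Libraries of a clone were summed, and high and low clones compared with edgeR 4.0.16 (quasi-likelihood test, TMM scaling, filterByExpr, Benjamini-Hochberg adjusted p under 0.05 over all genes tested) in R 4.3.3, after tests on simulated data. Intermediate clones were fitted with both classes, sharing one dispersion. DESeq2 1.42.0, limma 3.58.1, RLE scaling, no filter, a replicate block, a heart covariate and leaving out each clone were alternatives. Leaving out yfp_2838c3 tumour 4, the extreme totals or an intermediate clone was chosen after seeing the data.

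Labels do not say whether libraries of one clone came from separate animals. Totals of 7638130 to 103794674 counts limit the precision of low members.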

Additional observations from a re-analysis of the deposited data

Results flagged for a closer look

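Of 86 groups tested (each member in the heart-free high and low clones), 8 held 1 clone far from the others. The rule flags about 1 in 20 groups by chance when values are normally distributed. CPM were not transformed and need not be so distributed, and members varied together. The count of 8 therefore cannot be read against that rate. In low clones, Psme1 stood at 120 CPM in yfp_6556c3, with the next clone at 95 CPM, and Batf2 at 7.65 CPM in yfp_6499c3, with the next at 3.74 CPM. In high clones, Ifit2 stood at 8.86 CPM in yfp_2838c3, with the next at 4.84 CPM.

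The other 5 were all in the high clone yfp_7160c2. Its levels were 16.8 CPM for Oas1a, 31.6 CPM for Oas2, 25.4 CPM for Oas3, 14.9 CPM for Isg15 and 11.1 CPM for Ifi44. The next high clones stood at 8.37, 10.6, 9.36, 5.39 and 3.05 CPM. These genes come from 1 library and are not independent of each other.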

How the results depend on the processing

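No member passed the adjusted test under any alternative run, and the lowest adjusted p was 0.211 over all libraries (edgeR without yfp_2838c3) and 0.124 in heart-free libraries (DESeq2). Directions were less steady: of 1075 alternative fold changes of the 43 members over all libraries 161 had the other sign, and of 817 in heart-free libraries 71. Over the whole table DESeq2 called 123 genes over all libraries and 299 in heart-free ones, where edgeR called 0, and each library as a replicate gave 9 calls. Leaving out 1 clone gave 0 to 16 calls over all libraries and 0 to 37 in heart-free ones, the highest in both without yfp_2838c3. Intermediate against low clones gave 0 calls in heart-free libraries and 0 to 99 without 1 intermediate clone, the highest without yfp_6422c5. Members above 0 ran from 11 to 29 over all libraries and 17 to 35 in heart-free ones when 1 clone was left out, both lowest without yfp_7160c2. The gamma-type minus Ifit, Oas and Mx score with GTPase genes alone was 1.211 in high, 0.777 in low and 0.339 in intermediate heart-free clones. With all 19 gamma-type genes the score of intermediate clones was 1.120 over all libraries, against 1.157 in heart-free ones. The cause was not tested for any of these. Tumour numbers are shared across clones, and nothing in the labels says that a number marks a shared batch. The number nearly coincides with heart status, since 18 of 19 libraries of tumour 1 were heart-bearing and 19 of 20 of later tumours heart-free, so the block and the heart transcripts cannot be told apart. The fit with the tumour number as the replicate block called 8 genes and no member. It left 14 of 43 members and 5 of 11 GTPase genes above 0, against 26 and 11 without the block.

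The following members changed sign against the main fold change over all libraries, none past the adjusted threshold in either fit. With RLE scaling the log2 fold changes were Gbp7 -0.0018 and Oas1a -0.0034. By DESeq2 the log2 fold changes were Gbp7 -0.0018 and Oas1a -0.0031. By limma on clone means the log2 fold changes were Gbp6 -0.14, Irgm1 0.0035, Oas2 0.18, Rsad2 0.10 and Ifi44 -0.06. Without the filter on low counts the log2 fold changes were Gbp7 -0.03, Wars -0.01 and Oas1a -0.03. Without yfp_2838c3 tumour 4 the log2 fold changes were Gbp2 -0.17, Gbp3 -0.09, Gbp5 -0.0054, Gbp6 -0.24, Gbp7 -0.13, Igtp -0.08, Irgm2 -0.07, Tgtp1 -0.05, Batf2 -0.04 and Oas1a -0.11. In heart-bearing libraries alone the log2 fold changes were Gbp2 -0.52, Gbp3 -0.54, Gbp5 -0.35, Gbp6 -0.42, Gbp7 -0.18, Igtp -0.39, Irgm2 -0.17, Tgtp1 -0.43, Irf1 -0.07, Socs1 -0.23, Ido1 -0.92, Wars -0.0034, Psme1 -0.25, Psme2 -0.18, Batf2 -1.02, Irf9 -0.14, Irf7 -0.37, Oas1a -0.71, Usp18 -0.47, Cmpk2 -0.57, Ifi44 -0.37 and Zbp1 -0.25. Without the lowest and the highest total the log2 fold changes were Gbp2 -0.02, Gbp6 -0.03, Gbp7 -0.09, Irgm2 -0.0023, Tgtp1 -0.09, Wars -0.0085 and Oas1a -0.02. With each library as a replicate and no replicate block the log2 fold changes were Irgm1 0.08, Wars -0.13, Icam1 0.06, Oasl2 0.04 and Usp18 -0.0099. With the tumour number as the replicate block the log2 fold changes were Gbp2 -0.16, Gbp3 -0.13, Gbp6 -0.10, Gbp7 -0.10, Igtp -0.02, Irgm1 0.0085, Tgtp1 -0.17, Ido1 -0.03, Wars -0.13, Batf2 -0.0051, Oas1a -0.18, Usp18 -0.13 and Cmpk2 -0.10. With the heart sum as a covariate the log2 fold changes were Tgtp1 -0.08, Ido1 -0.05, Wars -0.12, Oas2 0.12, Oasl2 0.08 and Cmpk2 -0.04. Leaving out 1 clone at a time gave Gbp2 -0.16 to 0.39, Gbp3 -0.03 to 0.43, Gbp6 -0.29 to 0.24, Gbp7 -0.12 to 0.15, Igtp -0.12 to 0.28, Irgm1 -0.19 to 0.07, Irgm2 -0.12 to 0.25, Tgtp1 -0.28 to 0.34, Ido1 -0.38 to 0.89, Wars -0.07 to 0.15, Batf2 -0.09 to 0.53, Stat2 -0.06 to 0.20, Irf7 -0.22 to 0.31, Oas1a -0.34 to 0.23, Oas2 -0.65 to 0.35, Oas3 -0.71 to 0.11, Oasl2 -0.35 to 0.11, Usp18 -0.34 to 0.25, Rsad2 -0.76 to 0.03, Cmpk2 -0.26 to 0.43, Ifi44 -0.52 to 0.29 and Zbp1 -0.06 to 0.51.

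The following members changed sign against the main fold change in heart-free libraries, none past the adjusted threshold in either fit. With RLE scaling it was -0.0037 for Gbp7. By DESeq2 it was -0.0037 for Gbp7. By limma on clone means the log2 fold changes were Gbp6 -0.16, Gbp7 -0.0001, Tgtp1 -0.15, Wars 0.11, Icam1 0.09, Stat2 0.01, Oas3 -0.34, Mx1 0.05, Ifi44 -0.27 and Rtp4 -0.09. Without the filter on low counts it was -0.01 for Gbp7. Without yfp_2838c3 tumour 4 the log2 fold changes were Gbp2 -0.11, Gbp6 -0.14, Gbp7 -0.17 and Rtp4 -0.11. Leaving out 1 clone at a time gave Gbp2 -0.08 to 0.40, Gbp6 -0.08 to 0.39, Gbp7 -0.10 to 0.22, Irgm1 -0.09 to 0.25, Irgm2 -0.06 to 0.38, Tgtp1 -0.32 to 0.41, Ido1 -0.11 to 1.47, Wars -0.15 to 0.15, Icam1 -0.20 to 0.11, Stat2 -0.17 to 0.12, Ifit1 -0.68 to 0.04, Oas1a -0.06 to 0.58, Oas2 -0.50 to 0.64, Oas3 -0.72 to 0.36, Oasl2 -0.06 to 0.41, Isg15 -0.53 to 0.08, Usp18 -0.03 to 0.61, Rsad2 -0.04 to 0.47, Ifi44 -0.52 to 0.65, Rtp4 -0.28 to 0.22 and Xaf1 -0.29 to 0.10.

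Depth limits the low members most: Cmpk2 had 2 counts and Rsad2 6 in yfp_6422c5 tumour 2, so ratios against that library are imprecise.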

Other observations

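The clones without a T cell class held the highest heart-bearing levels of several members. In the library of yfp_6883c1, Gbp2 stood at 84.6 CPM, Iigp1 at 65.2 CPM, Irf1 at 111 CPM, Ifit1 at 40.5 CPM, Ifit2 at 28.1 CPM, Isg15 at 22.3 CPM and Cmpk2 at 32.4 CPM. Its leukocyte sum was 155 CPM. In yfp_6883c4, from the same parent line by its title, Gbp2 was at 58.3 CPM, Iigp1 at 36.3 CPM and Ifit1 at 9.69 CPM. In the heart-free library of yfp_7062c3, Gbp2 was at 9.1 CPM, Ifit1 at 9.18 CPM and Oasl1 at 38 CPM.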
